A study of Mus musculus with 10 samples.

Results

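Basement membranes are thin sheets of matrix on which epithelial and endothelial cells rest, and 9 genes that encode their main building blocks were followed here in obstructed and sham-operated mouse kidneys. The genes were chosen by name from the 13920 genes listed: the collagen IV chains Col4a1 to Col4a5, the laminin chains Lama5, Lamb2 and Lamc1, and the linker Nid1. The 9 genes had 13 listed transcripts of 26686. The kidneys were left kidneys of C57BL/6 mice, taken whole, after either unilateral ureteral obstruction (UUO, the closing of the ureter of 1 kidney, a model of tubular injury and scarring; 5 libraries) or the sham operation (5 libraries). No further treatment was recorded for either group, and age, sex, time after surgery and any pooling of animals are not given in the labels used here. Whether each library stands for an animal of its own is likewise not stated, and the p-values therefore cover the variation among these libraries, which may be technical. Values are FPKM, fragments scaled by feature length and library size, as deposited.

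Collagen IV chains assemble into heterotrimers that link into a network. Col4a1 and Col4a2 chains assemble together and are found in nearly all basement membranes, whereas Col4a3, Col4a4 and Col4a5 chains assemble with each other and are known for the mature glomerular basement membrane, where variants of the human genes cause Alport syndrome. Laminins are cross-shaped trimers of an alpha, a beta and a gamma chain, and the Lama5, Lamb2 and Lamc1 chains form the laminin of the mature glomerular filter, where loss of human LAMB2 causes Pierson syndrome. Nidogen-1, encoded by Nid1, binds both laminin and collagen IV.

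The collagen IV genes lie in head-to-head pairs. The meeting places of Col4a1 with Col4a2 and of Col4a4 with Col4a3 are shown. In these data Col4a1 and Col4a2 were both higher in UUO, and Col4a3 and Col4a4 both lower. Col4a6 was called higher as deposited and Col4a5 was not. Any part of the start regions in these differences was not tested. On chromosome 8 (GRCm38) Col4a1 (ENSMUSG00000031502.11, 11198423 to 11312826, minus strand) and Col4a2 (ENSMUSG00000031503.13, 11312805 to 11449287, plus strand) overlapped at their first bases by 22 bases. On chromosome 1 Col4a4 (ENSMUSG00000067158.9, 82448423 to 82586849, minus strand) and Col4a3 (ENSMUSG00000079465.8, 82586921 to 82722059, plus strand) were separated by 71 bases. Col4a5 (ENSMUSG00000031274.16, chromosome X, 141475385 to 141689234, plus strand) faced Col4a6 across 1308 bases. Both sequences are from RefSeq, GRCm38.p6, and are written 5′ to 3′ on the minus strand. The first covers chr8:11312801-11312830, where the untranslated first exons of the genes meet, with the 22 shared bases in capitals. The second covers chr1:82586842-82586928, with the 71 bases between the gene starts in capitals.
Col4a1 and Col4a2: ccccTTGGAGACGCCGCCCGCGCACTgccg
Col4a4 and Col4a3: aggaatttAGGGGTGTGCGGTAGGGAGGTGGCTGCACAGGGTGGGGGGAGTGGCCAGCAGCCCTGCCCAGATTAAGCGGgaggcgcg

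In the 300-base RefSeq promoter window, from 250 bases before to 50 after the gene start, Col4a1 had a GC content of 74% and Col4a4 of 63.3%. Searched on both strands, the Col4a1 window held 1 GC box (GGGCGG) and 1 CCAAT box (CCAAT), but no TATAAA and no AP-1 motif (TGANTCA). The Col4a4 window held none of these 4 motifs. Over all 32851 promoter windows of the same length, 35.7% held GGGCGG, 37.4% CCAAT, 13.6% TATAAA and 7.81% TGANTCA. RefSeq windows were found for 7 of the 9 genes.

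The libraries differed in overall scale. Summed FPKM ran from 282172 to 302519 in UUO and from 327994 to 343018 in sham kidneys, and the median gene of 13202 tested stood 0.40 (log2) higher in UUO. Rescaling by median-of-ratios, 1 factor per library that brings the typical gene to the same level, took that median to 0.002, and rescaling to equal sums to 0.55, so differences are also given relative to it where it matters. The library Sham 4 stood apart: its log2 profile correlated with the other sham libraries at 0.965 to 0.974, against up to 0.992 among the others. The collecting duct water channel gene Aqp2 read 399 FPKM in Sham 4 and 76.4 FPKM on average in the other 4 sham libraries. Values without Sham 4 are given beside several of the results it moved.

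The collagen IV network genes split. Col4a1 and Col4a2 were 5.65-fold and 4.93-fold higher in UUO kidneys, Col4a3 and Col4a4 were lower, and Col4a5 was not called. The laminin genes Lama5, Lamb2 and Lamc1 rose between 2.30-fold and 2.93-fold, and Nid1, at 8.14-fold, had the largest rise of the 9. In all, 6 of the 9 genes were called higher and 2 lower by limma (Benjamini-Hochberg adjusted p below 0.05 over all genes). The same test called 58.5% of all genes higher, 16.1% lower and 74.7% in either direction, so the count of 6 stands close to the background. The same 6 and 2 genes also had groups that did not overlap, against 47.5% of all genes with every UUO library above and 12.2% with every UUO library below (59.7% together). The 6 and 2 calls also held at equal sums, where 67.2% of all genes were higher and 11.7% lower, with median-of-ratios (34.1% and 34.3%) and with quantile normalization (30.1% and 36.3%). The median log2 difference of the 9 genes was 1.17, against 0.40 over all genes tested. All 9 passed the filter on low values, none of them through the UUO group alone.

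**Figure D1:**
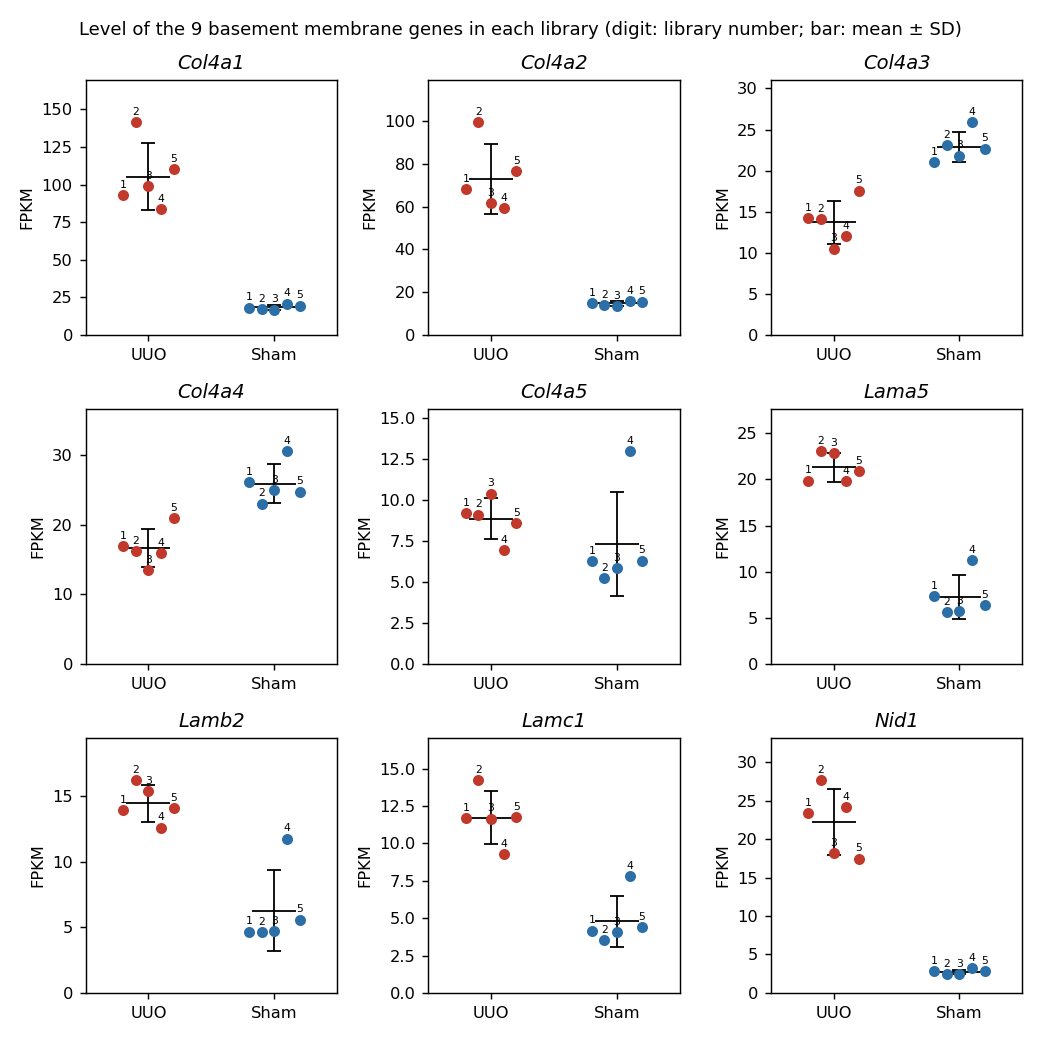
FPKM (y axis, linear, from 0) of the 9 genes in each UUO (left, red) and sham (right, blue) library, numbered by library, with mean ± SD. The groups are apart in every panel except Col4a5, where Sham 4 at 13.0 FPKM lies above all UUO libraries.

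Col4a1, the more abundant of the ubiquitous chains, read 92.9, 141, 98.9, 83.5 and 110.1 FPKM in UUO libraries 1 to 5, against 18.3, 17.4, 16.9, 21.0 and 19.6 FPKM in sham libraries 1 to 5. Every UUO library lay above every sham library, and UUO 2 was the highest. The means were 105 ± 22.4 FPKM in UUO and 18.6 ± 1.65 FPKM in sham (SD, n = 5 each), a 5.65-fold ratio and a log2 difference of 2.42 (SE 0.13, limma adjusted p = 1.06e-07). This difference was larger than that of 96.8% of all genes tested.

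Its partner Col4a2 read 68.1, 99.4, 61.4, 59.2 and 76.6 FPKM in UUO, against 15.0, 14.0, 13.4, 15.96 and 15.6 FPKM in sham. UUO 2 was again the highest library and UUO 4 the lowest of the UUO group, as for Col4a1. The ratio of means was 4.93 (72.9 ± 16.2 FPKM in UUO, 14.8 ± 1.09 FPKM in sham), with a log2 difference of 2.21 (SE 0.13, limma adjusted p = 1.97e-07). Both genes varied more among UUO libraries (coefficients of variation of 21.2% and 22.3%) than among sham libraries (8.87% and 7.38%). With median-of-ratios scaling the log2 differences were smaller, at 1.92 for Col4a1 and 1.71 for Col4a2.

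Col4a3, a chain of the mature glomerular network, read 14.3, 14.1, 10.5, 12.1 and 17.6 FPKM in UUO, against 21.0, 23.1, 21.8, 25.9 and 22.7 FPKM in sham. All UUO libraries lay below all sham libraries, with UUO 5 the highest and UUO 3 the lowest of their group. Col4a3 fell by 0.72 on the log2 scale (SE 0.12, limma adjusted p = 2.53e-04), and its mean was 1.67-fold lower in UUO (13.7 ± 2.65 FPKM) than in sham (22.9 ± 1.85 FPKM).

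Col4a4, its head-to-head neighbour, read 16.99, 16.2, 13.5, 15.9 and 21.0 FPKM in UUO, against 26.1, 23.1, 25.0, 30.6 and 24.8 FPKM in sham. The groups did not overlap, and UUO 5 and UUO 3 were again the highest and lowest UUO libraries. Col4a4 fell by 0.61 (SE 0.11, limma adjusted p = 5.11e-04), with means of 16.7 ± 2.73 FPKM in UUO and 25.9 ± 2.84 FPKM in sham. The size of both falls depended on the scaling. The log2 difference of Col4a3 was -0.53 at equal sums, -0.97 with quantile normalization and -1.20 with median-of-ratios, and that of Col4a4 was -0.42, -0.83 and -1.10 in the same order. In bulk tissue, fewer cells of a type and less RNA per cell cannot be told apart.

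Col4a5, the third chain of that network, did not follow the other two. It read 9.20, 9.11, 10.4, 6.94 and 8.61 FPKM in UUO, against 6.27, 5.25, 5.83, 13.0 and 6.31 FPKM in sham. Apart from Sham 4 every sham library lay below every UUO library, while Sham 4 lay above them all. The log2 difference was 0.30 (SE 0.20, limma adjusted p = 0.195), and without Sham 4 it was 0.50 (adjusted p = 0.00141), so this 1 library decided the call. The sign also depended on the scaling, at -0.15 with median-of-ratios and -0.12 with quantile normalization. Relative to the median gene the difference was -0.10 as deposited and 0.07 without Sham 4.

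Col4a6, the last collagen IV chain, was near the floor of these data. It averaged 1.38 ± 0.107 FPKM in UUO and 0.564 ± 0.838 FPKM in sham, where Sham 4 read 2.06 FPKM and the other 4 averaged 0.190 FPKM. It was called higher as deposited (log2 difference 0.73, limma adjusted p = 0.0191), but not with median-of-ratios (adjusted p = 0.0767) or quantile normalization (adjusted p = 0.710). Col4a6 and Col4a5, which share a head-to-head start region, were both higher in Sham 4 than in the other sham libraries.

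Added up over the 6 chains, collagen IV transcripts came to 219 ± 40.4 FPKM in UUO and 90.1 ± 10.6 FPKM in sham. The Col4a1 and Col4a2 sum was 178 ± 38.3 FPKM in UUO and 33.4 ± 2.72 FPKM in sham. The sum of Col4a3, Col4a4 and Col4a5 was 39.3 ± 5.16 FPKM in UUO and 56.1 ± 7.50 FPKM in sham. Col4a1 and Col4a2 thus made up 79.4%, 85.5%, 81.7%, 79.7% and 79.4% of the total in UUO libraries 1 to 5, against 38.3%, 37.8%, 36.5%, 34.0% and 39.5% in sham libraries 1 to 5. Col4a3, Col4a4 and Col4a5 together made up 18.2% ± 2.58 in UUO and 62.2% ± 1.52 in sham. The cells that gave these transcripts cannot be told from whole kidneys. These shares do not depend on library scaling, and the difference for Col4a1 and Col4a2 was 43.9 percentage points with Sham 4 and 43.1 without it.

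**Figure D2:**
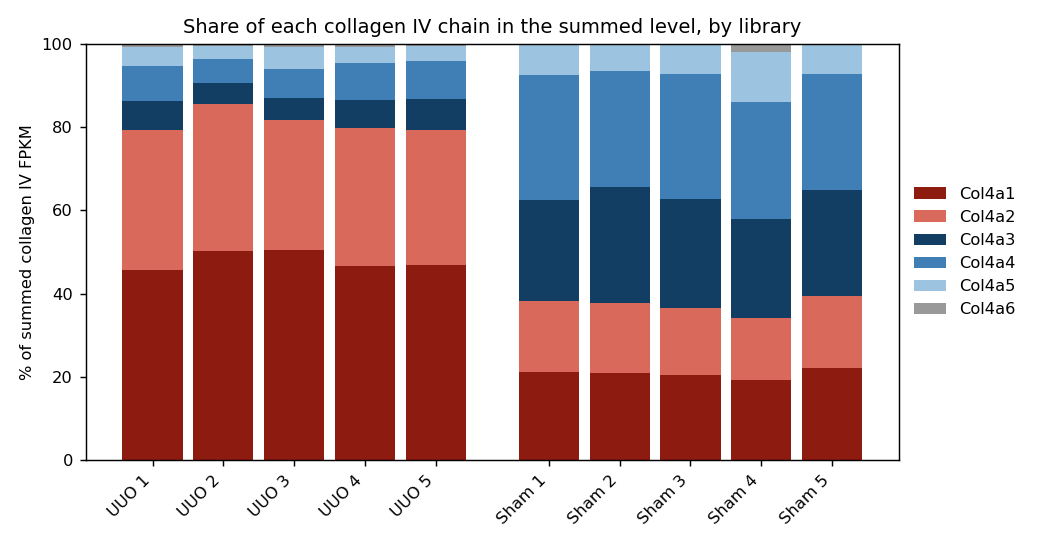
Share of each collagen IV chain (y axis, % of summed collagen IV FPKM) in every library, UUO on the left and sham on the right. The red part, Col4a1 and Col4a2, fills 79.4% to 85.5% of the UUO bars and 34.0% to 39.5% of the sham bars.

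Ratios of paired chains within a library, which also do not depend on scaling, were compared by exact two-sided permutation tests, adjusted over 10 ratios. The smallest p that 5 against 5 libraries can give is 0.00794, or 0.0132 after adjustment here. Col4a3 over Col4a1 was 0.154, 0.0995, 0.106, 0.145 and 0.159 in UUO, against 1.15, 1.33, 1.29, 1.23 and 1.16 in sham. Sham kidneys thus carried slightly more Col4a3 than Col4a1 per length, and UUO kidneys far less. The log2 ratio differed by -3.24, UUO minus sham (adjusted exact p = 0.0132), and that of Col4a4 over Col4a2 differed by -2.92 (adjusted exact p = 0.0132). Col4a5 over Col4a1 differed by -2.13 (adjusted exact p = 0.0132), with Sham 4 at a log2 ratio of -0.69 and the other sham libraries between -1.73 and -1.54.

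Within pairs the ratios moved far less. Col4a1 over Col4a2 averaged 1.45 ± 0.0937 in UUO and 1.26 ± 0.0339 in sham, without overlap (log2 difference 0.20, adjusted exact p = 0.0132). Col4a3 over Col4a4 averaged 0.817 ± 0.0457 in UUO and 0.888 ± 0.0751 in sham, and the groups overlapped. Its log2 difference was -0.12 (adjusted exact p = 0.119), with values from -0.15 to -0.07 when single libraries were left out. Without Sham 1 it passed the threshold, at -0.15 (adjusted exact p = 0.0397).

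**Figure D3:**
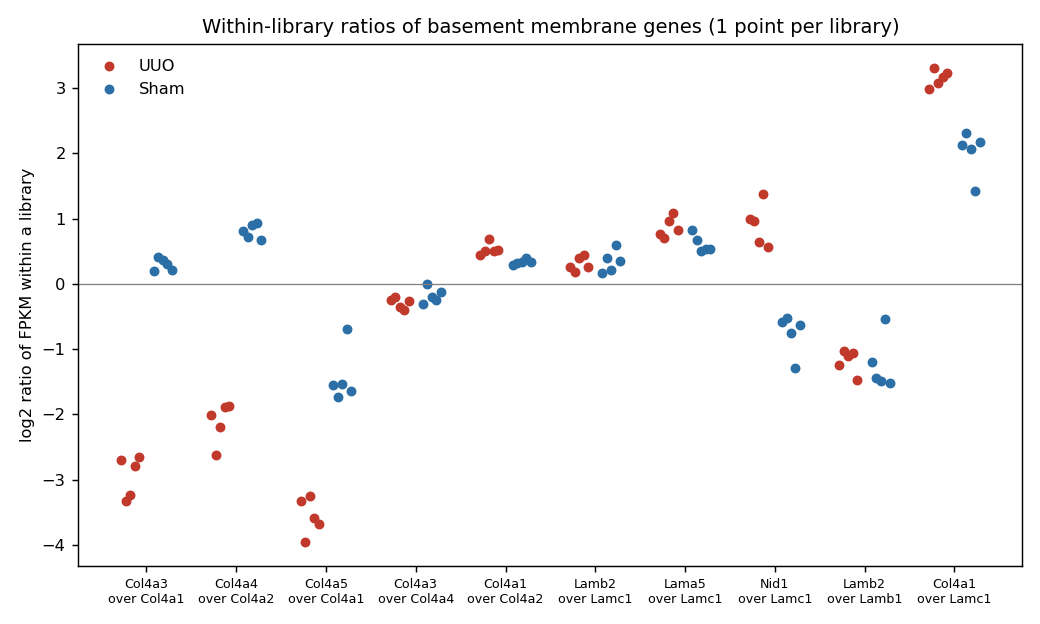
Log2 ratios of FPKM (y axis) of 10 gene pairs, 1 point per library, UUO (red) left of sham (blue). The 3 ratios of Col4a3, Col4a4 or Col4a5 over Col4a1 or Col4a2 lie lower in all UUO libraries. Col4a3 over Col4a4 and Lamb2 over Lamc1 overlap between groups.

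The laminin chains rose together. Lama5 (ENSMUSG00000015647.9, chromosome 2, 180176373 to 180225859, minus strand), the alpha chain of most adult kidney basement membranes, read 19.9, 23.1, 22.8, 19.8 and 20.9 FPKM in UUO, against 7.36, 5.62, 5.74, 11.3 and 6.34 FPKM in sham. The groups did not overlap, and Sham 4 was the highest sham library. Lama5 was 2.93-fold higher, or 3.40-fold without Sham 4 (21.3 ± 1.57 FPKM in UUO, 7.27 ± 2.35 FPKM in sham), with a log2 difference of 1.47 (SE 0.16, limma adjusted p = 9.67e-06). With a coefficient of variation of 7.38% it was the least variable of the 9 genes among UUO libraries.

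Lamb2 (ENSMUSG00000052911.9, chromosome 9, 108479736 to 108490530, plus strand), the beta chain of the mature glomerular laminin, read 14.0, 16.2, 15.4, 12.6 and 14.1 FPKM in UUO, against 4.68, 4.62, 4.71, 11.8 and 5.59 FPKM in sham. Sham 4 came within reach of the lowest UUO library, and the other sham libraries lay far below. The log2 difference was 1.16 (SE 0.21, limma adjusted p = 4.35e-04) and the ratio of means 2.30, or 2.95 without Sham 4.

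Lamc1 (ENSMUSG00000026478.14, chromosome 1, 153218922 to 153332786, minus strand), the gamma chain shared by most laminins, read 11.7, 14.2, 11.7, 9.30 and 11.8 FPKM in UUO, against 4.17, 3.52, 4.06, 7.81 and 4.38 FPKM in sham. Again no library of one group entered the range of the other. Lamc1 was 2.45-fold higher in UUO, or 2.91-fold without Sham 4, with a log2 difference of 1.17 (SE 0.17, limma adjusted p = 1.06e-04).

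Lamb1, the beta chain that Lamb2 replaces as the glomerular filter matures, was not among the 9 but was measured beside them. It read 33.0, 33.2, 33.0, 26.3 and 39.0 FPKM in UUO, against 10.8, 12.6, 13.2, 17.01 and 16.004 FPKM in sham, a 2.36-fold rise (log2 difference 1.19, limma adjusted p = 1.31e-05). Lamb2 over Lamb1 averaged 0.443 ± 0.0524 in UUO and 0.440 ± 0.145 in sham. The log2 difference of this ratio was 0.06 (adjusted exact p = 0.841), and it ran from -0.01 to 0.23 when single libraries were left out, the highest value being that without Sham 4. No difference in this ratio was called with Sham 4 or without it (adjusted exact p = 0.119 without it). Sham 4 stood at a ratio of 0.691, against 0.349 to 0.434 in the other sham libraries. Whether the collagen IV ratios shifted more than this one was not tested.

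Among the laminin chains themselves, Lamb2 over Lamc1 differed by -0.04 (adjusted exact p = 0.776). Lama5 over Lamc1 was 1.84 ± 0.205 in UUO and 1.54 ± 0.147 in sham, a log2 difference of 0.26 (adjusted exact p = 0.0454). That call was lost without any 1 of UUO 3, UUO 4, UUO 5, Sham 2, Sham 3, Sham 4 or Sham 5, with adjusted exact p between 0.0680 and 0.0907. Col4a1 over Lamc1 was higher by 1.14 in UUO (adjusted exact p = 0.0132), so the ubiquitous collagen chain outran the common laminin chain in every UUO library.

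Nid1 (ENSMUSG00000005397.8, chromosome 13, 13437551 to 13512269, plus strand) read 23.4, 27.7, 18.2, 24.2 and 17.5 FPKM in UUO, against 2.79, 2.45, 2.40, 3.18 and 2.81 FPKM in sham. The sham libraries were close together, and the lowest UUO library was far above them. Its log2 difference of 2.62 (SE 0.13, limma adjusted p = 5.52e-08) was larger than that of 97.5% of all genes tested. With median-of-ratios scaling the difference was 2.18. Nid1 over Lamc1 averaged 1.92 ± 0.443 in UUO and 0.601 ± 0.115 in sham (log2 difference 1.67, adjusted exact p = 0.0132).

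Ordered by mean FPKM, a level per length, the 9 genes changed places. In UUO kidneys the order was Col4a1, Col4a2, Nid1, Lama5, Col4a4, Lamb2, Col4a3, Lamc1 and Col4a5. In sham kidneys it was Col4a4, Col4a3, Col4a1, Col4a2, Col4a5, Lama5, Lamb2, Lamc1 and Nid1. In UUO, Col4a1 exceeded Col4a2, Col4a2 exceeded Nid1 and Lamc1 exceeded Col4a5 in 5 of 5 libraries, while the neighbours from Nid1 down to Lamc1 changed order in at least 1 library. In sham, Col4a5 exceeded Lama5 in 2 of 5 libraries, Col4a4 exceeded Col4a3 and Lama5 exceeded Lamb2 in 4 of 5, and the other neighbours kept their order in all 5. Nid1 stood in place 3 in UUO, at 22.2 ± 4.29 FPKM, and was the least abundant of the 9 in sham, at 2.73 ± 0.315 FPKM. For 11 genes (the 9, Lamb1 and Col4a6) transcript values weighted by length implied a gene length of 95.3% to 100% of all annotated exonic bases. Levels between genes rest on that length, and ratios between groups do not.

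At the transcript level, 13 transcripts of the 9 genes were listed, and limma called 6 higher and 2 lower, against 32.2% higher and 12.2% lower among 21412 transcripts tested. Of the 13, Col4a5-201 and Lamb2-207 did not pass the filter on low values and were not tested. Each of the 8 genes called at the gene level had its main transcript called in the same direction. Col4a1, Col4a2, Col4a3, Col4a4, Lama5 and Nid1 had only 1 listed transcript each. For them the transcript value follows the gene value, so this match was fixed in advance and adds no support. For Col4a1-201 the log2 difference was 2.43 (adjusted p = 9.62e-07) and for Nid1-201 it was 2.67 (adjusted p = 6.43e-07), while Col4a3-201 differed by -0.72 (adjusted p = 0.00104). No transcript share of these genes was called different between groups (0 calls, against 0.714% of 14003 shares tested). Only Col4a5, Lamb2 and Lamc1 had more than 1 listed transcript, so few shares could be tested. The share of Col4a5-202 averaged 45.3% in UUO and 60.5% in sham and was not called (limma adjusted p = 0.751). At an unadjusted p below 0.05, 2 shares passed in limma, those of Lamb2-201 and Lamb2-207, which add up to the same total.

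Transcript values of Lamc1 and Col4a5 were not steady within groups. The short transcript Lamc1-204 held 4.01% to 22.2% of the Lamc1 transcript sum in UUO, against 66.8% in Sham 2 and at most 3.15% in the other sham libraries. Col4a5-201 was listed at 6.97, 0, 0, 0 and 6.38 FPKM in UUO, against 0, 0, 3.59, 7.88 and 0 FPKM in sham. Col4a5-202 was listed at 1.58, 8.77, 9.62, 2.61 and 1.42 FPKM in UUO, against 5.79, 4.71, 1.43, 4.64 and 6.00 FPKM in sham. Which of the 2 long transcripts was higher changed from library to library in both groups. Sham 4 held both (7.88 and 4.64 FPKM), and in UUO 4 both lay below Col4a5-204. The short transcript Col4a5-204 was listed at 8.32 FPKM in UUO 4 and between 1.04 and 2.32 FPKM in the other UUO libraries, against 0.847 to 2.07 FPKM in sham.

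**Figure D4:**
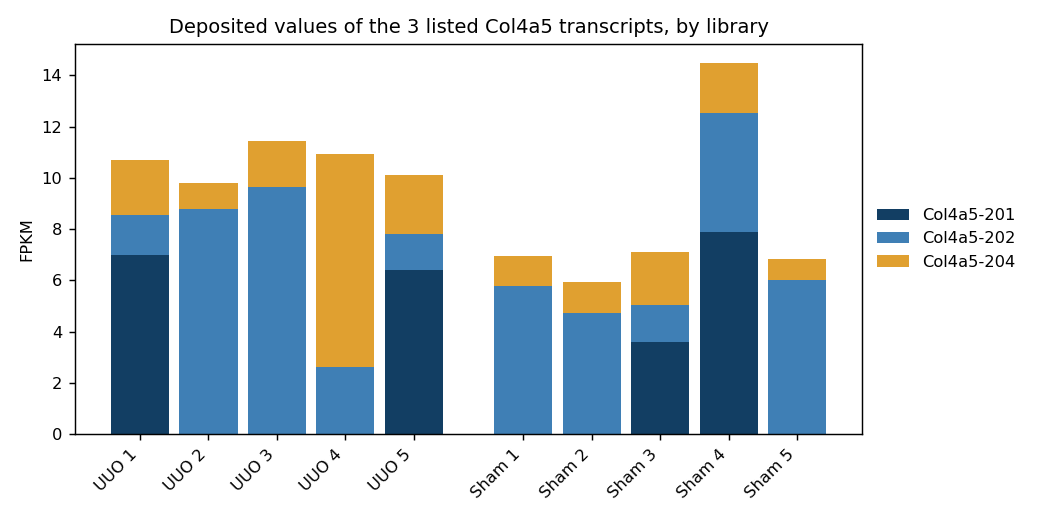
Deposited FPKM (y axis) of the 3 listed Col4a5 transcripts, stacked per library, UUO on the left and sham on the right. Col4a5-201 is at 0 in 3 UUO and 3 sham libraries, and stacks exceed the gene values because each transcript is scaled to its own length.

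The other basement membrane genes put the 9 in context. All 4 other collagens of basement membranes were called higher, beside 58.5% of all genes. Their median log2 difference was 1.81, against 0.40 over all genes. Col15a1, which bridges basement membrane and interstitial matrix, averaged 33.4 ± 9.28 FPKM in UUO and 1.89 ± 0.214 FPKM in sham, 17.7-fold, and Col18a1, the precursor of endostatin, was 4.71-fold higher. Col7a1, the anchoring fibril collagen, was below 0.5 FPKM in every sham library and so was tested only because UUO libraries reached that level.

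Of 9 other laminin-type genes, 6 were called higher, 0 lower and 3 not called, with a median of 0.99. Over all genes 58.5% were called higher and 16.1% lower, so the count of 6 stands near the background. The count was 7 higher and 0 lower at equal sums, 5 and 1 with median-of-ratios, and 5 and 3 with quantile normalization. The laminin-related netrin Ntn4, the most abundant of the list, rose 2.02-fold (42.1 ± 16.9 FPKM in UUO, 20.9 ± 3.40 FPKM in sham), but was not called with median-of-ratios (log2 difference 0.43, limma adjusted p = 0.0735). Lama1, the alpha chain of early embryonic basement membranes, averaged 1.98 ± 0.535 FPKM in UUO and 2.51 ± 0.413 FPKM in sham and was not called (limma adjusted p = 0.114). It was called lower with median-of-ratios scaling (-0.60, adjusted p = 0.00282) and with quantile normalization (-0.89, adjusted p = 3.61e-04).

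Of 15 linker and associated genes, 13 were tested, with a median of 1.26. Beside 58.5% of all genes called higher and 16.1% lower, 10 of the 13 were called higher, 2 lower and 1 not called. Of these 10, Egflam was below 0.5 FPKM in every sham library and was tested only because UUO libraries reached that level. Nid2, the second nidogen, was 2.73-fold higher, and agrin (Agrn), a heparan sulfate proteoglycan of the glomerular basement membrane, 3.95-fold. Smoc2 was 20.9-fold higher and Sparc, a collagen-binding matricellular protein and the most abundant of the list, 13.1-fold. Tinag, a tubular basement membrane protein, averaged 53.4 ± 9.30 FPKM in UUO and 75.7 ± 10.5 FPKM in sham (log2 difference -0.50, limma adjusted p = 0.00647), and was not called at equal sums (adjusted p = 0.0511). It was called lower with median-of-ratios (-1.01, adjusted p = 3.74e-04) and with quantile normalization (-0.41, adjusted p = 0.0141).

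**Figure D5:**
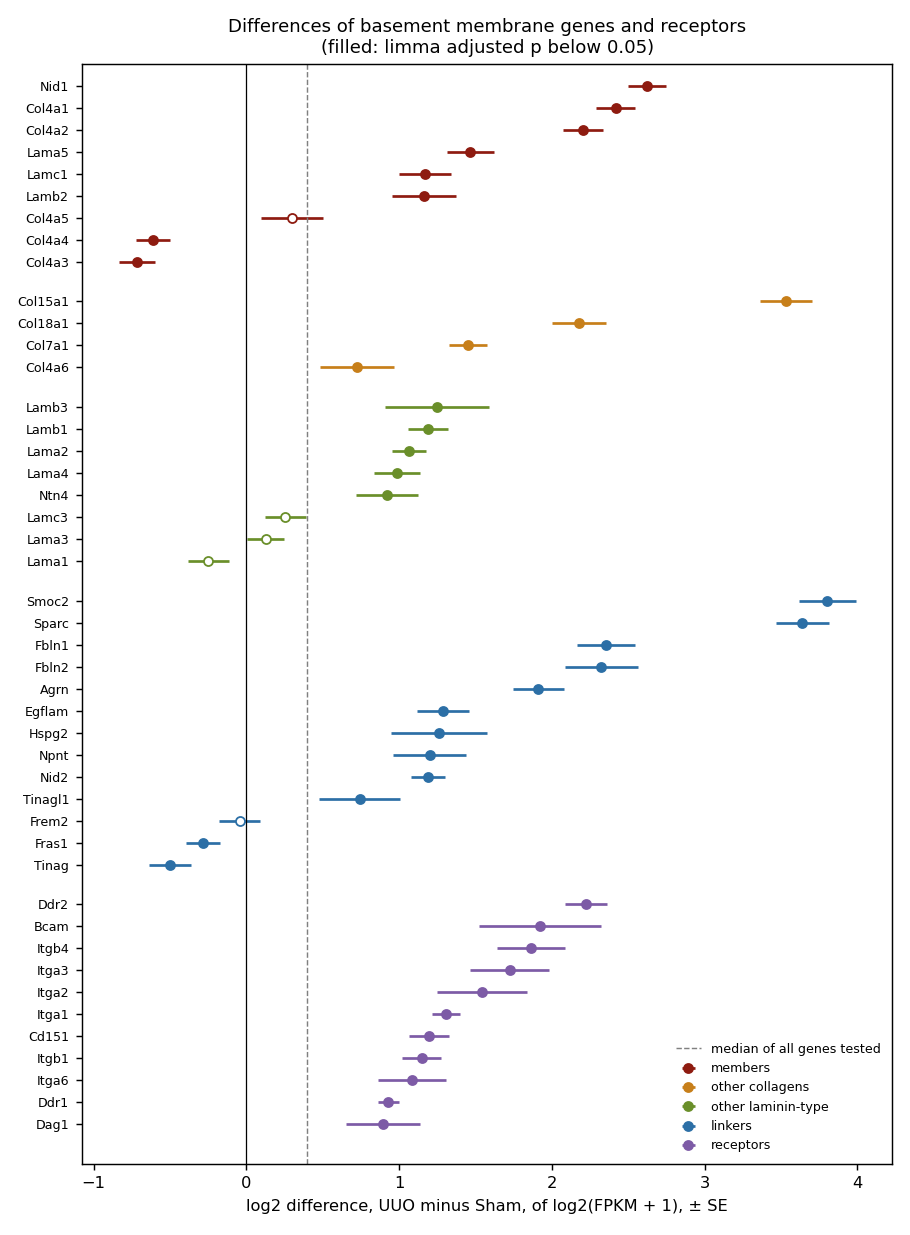
Log2 difference, UUO minus sham, of log2(FPKM + 1) (x axis, points with SE bars) for the 9 genes and most of the tested basement membrane collagens, laminin-type genes, linkers and receptors, filled where the limma adjusted p was below 0.05. The dashed line marks the median of all genes tested at 0.40; Col4a3 and Col4a4 lie left of 0, with Tinag, Fras1, Frem2 and Lama1.

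Of 11 enzymes and chaperones of collagen IV assembly, 8 were called higher, 2 lower and 1 not called (median 0.91), against 58.5% higher and 16.1% lower over all genes. The count was 8 higher and 0 lower at equal sums, 7 and 3 with median-of-ratios, and 6 and 2 with quantile normalization. Pxdn, the peroxidase that forms the sulfilimine bonds between collagen IV molecules, was 4.77-fold higher (10.4 ± 1.89 FPKM in UUO, 2.19 ± 0.293 FPKM in sham), and the collagen chaperone gene Serpinh1 was 3.17-fold higher. P3h2, a prolyl 3-hydroxylase that acts on collagen IV, was lower (27.3 ± 5.30 FPKM in UUO, 35.2 ± 6.11 FPKM in sham; log2 difference -0.36, limma adjusted p = 0.0394). The most abundant, P4hb, a subunit of prolyl 4-hydroxylase, was lower by a log2 difference of -0.32 (adjusted p = 0.00853). Neither of these falls was called at equal sums, with adjusted p of 0.311 for P3h2 and 0.271 for P4hb, and that of P4hb was also lost with quantile normalization (adjusted p = 0.182). With median-of-ratios both were called, at -0.86 for P3h2 (limma adjusted p = 1.87e-04) and -0.82 for P4hb (adjusted p = 6.41e-05). P3h2 was also called lower with quantile normalization (-0.48, adjusted p = 0.0135).

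All 11 receptor genes were called higher, beside 58.5% of all genes, with a median of 1.31. Itgb1, the beta chain of the main collagen and laminin integrins, was 2.23-fold higher (153 ± 20.7 FPKM in UUO, 68.8 ± 12.2 FPKM in sham). The collagen receptor kinase Ddr2 was 10.1-fold higher and Itga3, the alpha chain of a laminin integrin of podocytes, 3.38-fold (4.68-fold without Sham 4). With median-of-ratios scaling 10 of the 11 were called higher.

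Markers of the cells that make these membranes also moved, and their part in the results was not tested. Podocytes are known as a main source of the Col4a3, Col4a4 and Col4a5 network, and 10 of 11 tested podocyte markers were called higher and 1 lower. Over all genes 58.5% were called higher and 16.1% lower. The summed level of the podocyte markers was 105 to 147 FPKM in UUO and 57.5 to 69.2 FPKM in sham. With median-of-ratios scaling 6 of these markers were higher and 1 lower, against 34.1% and 34.3% of all genes. The slit diaphragm gene Nphs1 was higher as deposited (log2 difference 0.58, limma adjusted p = 0.00252), but was not called with median-of-ratios (adjusted p = 0.151). Podxl, the podocyte sialomucin, was 1.74-fold higher as deposited and likewise not called with median-of-ratios (adjusted p = 0.0655). Tcf21, which stromal cells also express, was 7.26-fold higher. Clic5 was lower (14.2 ± 1.88 FPKM in UUO, 17.2 ± 0.454 FPKM in sham), but was not called at equal sums (adjusted p = 0.436). It was called lower with median-of-ratios (-0.75, limma adjusted p = 5.65e-05) and with quantile normalization (-0.54, adjusted p = 3.66e-04). Col4a3 and Col4a4 thus fell in libraries where most podocyte markers did not.

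Markers of mesangial cells, pericytes and fibroblasts were called higher in 11 of 11 cases, beside 58.5% of all genes. The summed level of these 11 markers was 263 to 398 FPKM in UUO and 29.8 to 48.9 FPKM in sham. Of these 11, Postn passed the filter through the UUO libraries alone. Tagln, a smooth muscle actin-binding protein, was 12.4-fold higher. Endothelial markers were called higher in 7 of 12 cases and not called in 5, a share near the 58.5% of all genes called higher. The count was 11 higher and 0 lower at equal sums, 4 and 2 with median-of-ratios, and 6 and 2 with quantile normalization. Their sum was 162 to 241 FPKM in UUO and 79.2 to 213 FPKM in sham, where Sham 4 gave 213 FPKM and the others at most 101 FPKM. Cdh5, the endothelial cadherin, was 2.75-fold higher, or 3.65-fold without Sham 4. Plvap was 1.61-fold higher, or 2.25-fold without Sham 4, and was not called with median-of-ratios (limma adjusted p = 0.311).

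Tubular markers went the other way, beside 16.1% of all genes called lower. All 10 proximal tubule markers were called lower, with sums of 258 to 1425 FPKM in UUO and 2138 to 3017 FPKM in sham. The phosphate transporter gene Slc34a1 averaged 265 ± 169 FPKM in UUO and 792 ± 126 FPKM in sham. Of 10 distal and collecting duct markers 8 were called lower (6 at equal sums, 10 with median-of-ratios and 8 with quantile normalization), with sums of 382 to 913 FPKM in UUO and 1086 to 1917 FPKM in sham. Calb1 was 14.5-fold lower (5.20 ± 3.17 FPKM in UUO, 75.5 ± 24.9 FPKM in sham), while uromodulin (Umod) averaged 444 ± 212 FPKM in UUO and 661 ± 133 FPKM in sham and was not called (limma adjusted p = 0.0538) except with median-of-ratios (log2 difference -1.19, adjusted p = 0.00323). No marker of these 5 lists was listed at 0 in any library.

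Sham 4 differed from the other sham libraries by gene. Over their mean it read 2.40-fold for Lamb2, 2.19-fold for Col4a5, 1.94-fold for Lamc1 and 1.80-fold for Lama5. For Col4a1, Col4a2, Col4a3, Col4a4 and Nid1 the same ratio was 1.10 to 1.24. It was 10.8 for Col4a6, 9.78 for Lamb3 and 5.22 for Aqp2. The part of collecting duct RNA in these values was not tested.

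The genes with the most similar profiles were found by the root mean square difference of centred log2 values over the 10 libraries, among 7319 genes with a mean of at least 5 FPKM. Col4a2 was nearest to Col4a1 (0.12), and Col4a1 was second nearest to Col4a2, after Gbp7 (0.097). Col4a4 was second nearest to Col4a3 (0.10), after Pfkm (0.089), while Col4a4 itself was nearest to Arhgap24 (0.069). Lamc1 was second nearest to Lamb2 (0.12) after Myo9a. The nearest gene to Nid1 was the mesenchymal receptor gene Pdgfrb (0.11). Lamc1 was nearest to Iqgap1 (0.094), Lama5 to Rab3d (0.11) and Col4a5 to Dock1 (0.080). Such likeness takes in the difference between the groups and says nothing of shared control.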

How the data were processed

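Libraries were prepared from total RNA of whole kidneys with a strand-specific kit and read on an Illumina NovaSeq, per the labels' protocols. Trimming, alignment and assembly used cutadapt, HISAT2 and StringTie with build GRCm38, per the submitters' processing notes. For versions, annotation release and listing threshold, nothing is given in the sources used here. Values of genes and transcripts are as the authors deposited them, with no unit in the header, and were taken as FPKM from their decimals and sums. Read depth is unknown, so no counting interval is given. Gene coordinates are the files' own and match GENCODE M21.

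Values were analysed as log2(FPKM + 1), which understates changes of low genes; folds are ratios of mean FPKM. Genes reaching 0.5 FPKM in 5 or more libraries (13202 of 13920) were fitted with limma 3.58.1 (eBayes with trend) in R 4.3.3, UUO against sham, with Benjamini-Hochberg adjustment over all of them and calls at an adjusted p below 0.05. Transcripts were fitted likewise, and shares after an arcsine square-root transformation. Ratios were tested by exact permutation over 252 relabellings in Python 3.11.15. The fits were tested on simulated data.

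Members and gene lists were chosen with earlier results of these data known. Genes named were every member, Lamb1 and Col4a6, in each list the called gene with the largest difference in each direction and the gene with the highest mean, and the 3 nearest profiles per member (the nearest are given). Some results are not reported here. Fras1, Frem2, Lama1, Lamb3, Col7a1, Nid2, Agrn, Egflam, Postn, Serpinh1, Itga3, Aqp2 and Nphs1 were named outside that rule, after values were seen. Alternatives were other scalings (equal sums, median-of-ratios, quantile), pseudocounts of 0.1 and 0.01, no filter or a filter at 1 FPKM, a replicate block, and each library left out. Ratios from transcript sums and shares without Sham 4 were added after seeing the data.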

Additional observations from a re-analysis of the deposited data

Results flagged for a closer look

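Of 38 sets of 5 libraries looked at (levels and log2 ratios, by group), 5 held a library separated from the rest by more than 0.71 of the whole range, all of them Sham 4. For a set taken alone, chance gives about 1 in 20. The sets share libraries and genes, so the count of 5 cannot be set against that rate. Its Col4a5 level of 13.0 FPKM, Lamb2 level of 11.8 FPKM and Lamc1 level of 7.81 FPKM each lay above the other sham libraries. Its log2 ratio of Col4a5 over Col4a1 was -0.69, above the others, and that of Col4a1 over Lamc1 was 1.42, below the others.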

How the results depend on the processing

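Each call of the 9 genes other than Col4a5's kept its direction and its side of the threshold under every alternative run: 3 scalings, 2 pseudocounts, 2 filters, the replicate block and each library left out. The fit with a replicate block still called 6 of the 9 genes higher and 2 lower; same-numbered libraries did not deviate together (correlations from -0.26 to 0.15), so the numbers were not taken as pairs. With single libraries left out, 6 to 7 of the 9 were called higher (7 without Sham 4, which added Col4a5) and 2 lower. Other basement membrane genes called lower numbered 2 as deposited, 0 at equal sums, 4 with median-of-ratios and 6 with quantile normalization, and 1 to 2 with single libraries left out. The log2 ratio of Lamb2 over Lamb1 was -0.027 with a pseudocount of 1 and -0.033 from listed transcripts, and -0.014 to 0.23 with single libraries left out. With single libraries left out, Lama5 over Lamc1 ranged from 0.20 to 0.31, Lamb2 over Lamc1 from -0.081 to 0.026 and Col4a3 over Col4a4 from -0.15 to -0.073. For the counts and ratios that moved, the cause was not tested. Depth is unknown, so differences of genes near 1 FPKM, such as Col4a6, carry an unknown counting error.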
